A study of Rattus norvegicus with 8 samples.

Results

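ADDL, soluble oligomers made from the amyloid-beta peptide, were set against vehicle in primary rat neurons after 24 h. The values come from the 2 arrays whose titles name ADDL treatment with no other agent, out of 8 arrays in the study, and for each probe they are the log2 ratio of treated RNA (Cy5) over vehicle RNA (Cy3). The neurons came from cortex and hippocampus of Sprague Dawley embryos at E18 and had been kept for 7 days in vitro before treatment. The groups were ADDL alone at 1 µM for 24 h, CAT-SKL alone at 1 µM for 24 h, CAT-SKL for 24 h and then ADDL for another 24 h (CAT-SKL+ADDL), and ADDL for 24 h and then CAT-SKL for another 24 h (ADDL+CAT-SKL), all at 1 µM and with 2 arrays each. CAT-SKL is a form of the hydrogen peroxide-degrading enzyme catalase that carries a peroxisome targeting signal. On every array the treated RNA carried Cy5 and the RNA of vehicle-treated neurons Cy3, and dyes were not swapped. The design text also calls this control untreated. A dye preference of a probe and an effect of ADDL therefore cannot be told apart in a single ratio. The study asked which genes differ in ADDL-treated neurons with and without the antioxidant.

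As background, ADDL bind to synapses of cultured neurons and are studied as a model of the synaptic failure of Alzheimer's disease. Receptors and kinases linked to their action include the prion protein, the NMDA and metabotropic glutamate receptors, Fyn, Cdk5 and GSK3. Calcium entry through synaptic receptors acts on the transcription factor CREB. It binds the cAMP response element (CRE) in regulatory regions of activity-regulated genes such as Arc, Bdnf and Crem. Cultures of embryonic brain also hold progenitors and glia, so that their RNA mixes neuronal transcripts with those of astrocytes, oligodendrocyte precursors and microglia.

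Arrays of a group are biological replicates per the study's design text, and the p-values below measure only the spread between these samples. On the ADDL arrays the median spot intensity was 100 and 97 in Cy5 and 104 on both in Cy3, over backgrounds of 26 and 25 in Cy5 and 29 on both in Cy3. In Cy5, 78.3% of probes were well above background on each ADDL array, and in Cy3 71.5% and 74.1% were. Across all 8 arrays these shares lay between 73.3% and 81.0% in Cy5 and between 71.5% and 77.4% in Cy3. The ADDL arrays differed from each other by more than the noise between repeated spots: over 15666 probes with 2 spots their log2 difference had an SD of 0.141, where spot noise accounts for 0.0822. Across the genes tested, which are not independent replicates, the log2 ratios of the ADDL arrays correlated at r = 0.51. For the CAT-SKL+ADDL arrays the same SDs were 0.0837 and 0.0830, within spot noise, and they were counted as 1 sample, so the fit holds 7 samples. Their small number limits the precision.

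The RNA carried the markers of the labelled cells and of several others. On both ADDL arrays the vehicle channel was well above background for 17 of 17 neuronal markers measured, 12 of 12 glutamatergic and 18 of 20 GABAergic neuron markers. The same held for 19 of 19 astrocyte markers, 15 of 15 radial glia and progenitor markers, 12 of 15 oligodendrocyte lineage markers and 14 of 17 microglia and macrophage markers. It held for 6 of 13 endothelial and pericyte, 7 of 12 meningeal and fibroblast and 4 of 7 blood cell markers.

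In ADDL-treated neurons the transcripts of activity-regulated genes lay mostly below vehicle. Those of astrocytes, oligodendrocyte precursors, dividing cells, GABAergic neurons and several tubulin genes lay mostly above it. Medians of the lists for these higher transcripts also lay above 0 on every CAT-SKL and CAT-SKL+ADDL array. No single gene passed the test. Of 22459 genes and unnamed accessions, 0 had an adjusted p under 0.05 against vehicle in limma's test with Benjamini-Hochberg adjustment (0% higher and 0% lower, smallest adjusted p = 0.0714). At an unadjusted p under 0.05 there were 4269, of which 2208 were higher (9.83% of all genes tested) and 2061 lower (9.18%). At a looser limit of adjusted p under 0.10 there were 862, of which 527 (2.35%) were higher and 335 (1.49%) lower. The counts that gene lists have at this limit, given below, stand beside these shares of all genes tested. The median absolute log2 ratio of those 862 was 0.32, and 6 of them differed at least 2-fold. On all 8 arrays, 567 of them (65.8%) had the same sign, beside 15.4% of all genes tested. Dye and treatment cannot be told apart there. Both ADDL arrays lay above all 6 other arrays for 129 of the 862 (15%) and below them for 136 (15.8%). Of all genes tested, 5.74% lay above and 4.75% below. The 862 were picked by their ADDL ratios, which by itself raises these shares. Both arrays lay above 0 for 7206 genes (32.1%) and below 0 for 7093 (31.6%). Both arrays lay at least 1.3-fold from vehicle in the same direction, which is 0.38 on the log2 scale, for 148 higher genes (0.659%) and 53 lower genes (0.236%). Because the ratio is set against 0, the spread between vehicle cultures enters the test only where arrays had separate vehicle RNA. The labels do not state whether they had. The count at 0.05 was 975 (581 higher and 394 lower) with 8 separate samples, 430 (292 higher and 138 lower) with median centring instead of loess, and 329 (203 higher and 126 lower) without CAT-SKL 1 and likewise without CAT-SKL 2. The count at 0.10 was 0 without ADDL 1, without either ADDL+CAT-SKL array and with the deposited ratios, and 5 without ADDL 2, and the 1.3-fold counts were 891 and 666 with the deposited ratios and 233 and 94 with no background subtraction.

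**Figure D1:**
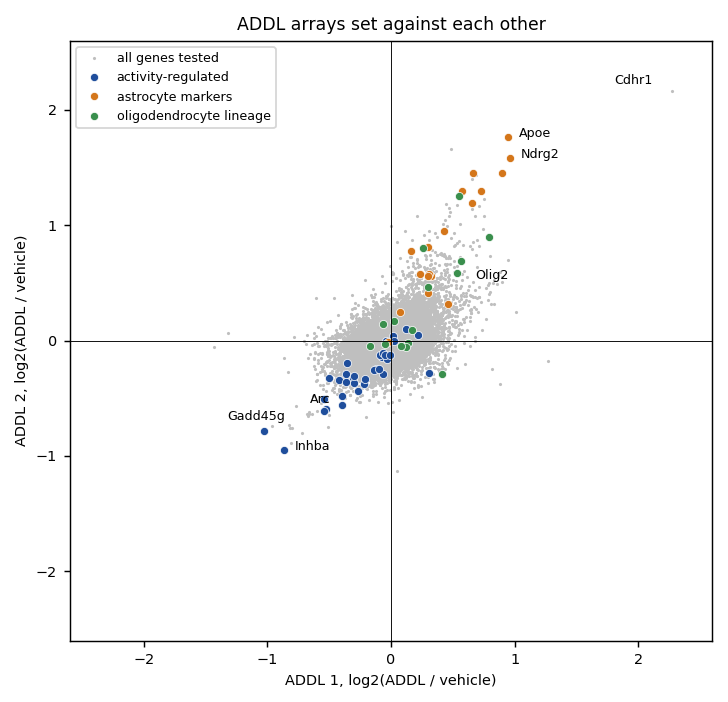
Log2 ratio of ADDL over vehicle on array ADDL 1 (horizontal) and array ADDL 2 (vertical), 1 point per gene tested, with activity-regulated genes in blue, astrocyte markers in orange and oligodendrocyte lineage markers in green. Most activity-regulated genes lie at the lower left, with Inhba at -0.87 and -0.95, and the astrocyte markers lie at the upper right and nearer the vertical axis, with Apoe at 0.95 and 1.76.

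Immediate early and activity-regulated genes are transcribed within minutes to hours of synaptic firing, without new protein synthesis for the earliest of them. Of 36 genes on this list 34 were measured, and both ADDL arrays lay below 0 for 29 of them and above 0 for 3. The list's median log2 ratio was -0.22 on ADDL 1 and -0.29 on ADDL 2, against a median of 0.00 on each for all genes tested. At an unadjusted p under 0.05 there were 20 lower members and 0 higher, beside 9.18% lower and 9.83% higher of all genes tested. At least 1.3-fold below vehicle on both arrays were 7 members, beside 0.236% of all genes tested. At an adjusted p under 0.10 there were 5, beside 2.35% higher and 1.49% lower of all genes tested. The median of the ADDL mean lay between -0.31 and -0.22 over all settings tried, each ADDL array alone included. The list medians on CAT-SKL 1 and CAT-SKL 2 were -0.32 and 0.07, those of CAT-SKL+ADDL -0.15 and -0.12, and those of ADDL+CAT-SKL 0.04 and 0.09.

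Among the secreted and signalling products of this list, Inhba, the activin A subunit that neurons make on synaptic activation, was at -0.87 on ADDL 1 and -0.95 on ADDL 2. Its mean log2 ratio was -0.91 ± 0.21 (SE, n = 2, adjusted p = 0.0892 in limma's test). Both arrays were close to each other and far below vehicle, yet CAT-SKL 1 was lower still at -1.05 and CAT-SKL 2 was at 0.10. Bdnf, the neurotrophin that strengthens synapses, was at -0.31 and -0.32 (adjusted p = 0.116, limma). Scg2, a granin of dense-core vesicles, was at -0.30 and -0.31 (adjusted p = 0.193, limma). For Scg2 all 4 arrays of the sequential treatments lay above 0, between 0.03 and 0.48.

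Among the transcription factors, Crem, whose locus also yields the CRE repressor ICER, was at -0.54 and -0.51, a mean of -0.53 ± 0.09 (SE, n = 2, adjusted p = 0.0714 in limma's test). Both ADDL arrays lay below the 6 other arrays, which ran from -0.40 to 0.26, and 4 other probes of Crem gave means between -0.49 and -0.17. Egr4 was at -0.54 and -0.61, Npas4 at -0.50 and -0.32, Egr2 at -0.37 and -0.36, and Jun at -0.30 and -0.37. None of these 4 factors reached an adjusted p under 0.10. The prototypes of the class were close to vehicle: Fos was at 0.22 and 0.05 and Egr1 at -0.09 and -0.13. Nr4a3 had opposite signs on the ADDL arrays, 0.31 and -0.28.

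Among the feedback regulators, Gadd45g, a stress-inducible partner of DNA demethylation enzymes, was at -1.03 and -0.78 (mean -0.91 ± 0.17, SE, n = 2, adjusted p = 0.0723 in limma's test). Its relative Gadd45b was at -0.27 and -0.43, and Rgs2, which shortens G protein signals, was at -0.53 and -0.59. Gadd45g lay below 0 on all 8 arrays, with CAT-SKL 1 at -1.03 and the ADDL+CAT-SKL arrays at -0.45 and -0.20. Dusp1, a phosphatase that switches off MAP kinases, was at -0.42 and -0.34, and the other 6 arrays ran from -0.35 to 0.12. The synaptic members Arc, which drives AMPA receptor endocytosis, and Homer1, a postsynaptic scaffold, were at -0.40 and -0.48 and at -0.36 and -0.20. Arc had an adjusted p of 0.117 in limma's test, and the ADDL+CAT-SKL arrays were at 0.22 and 0.26.

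**Figure D2:**
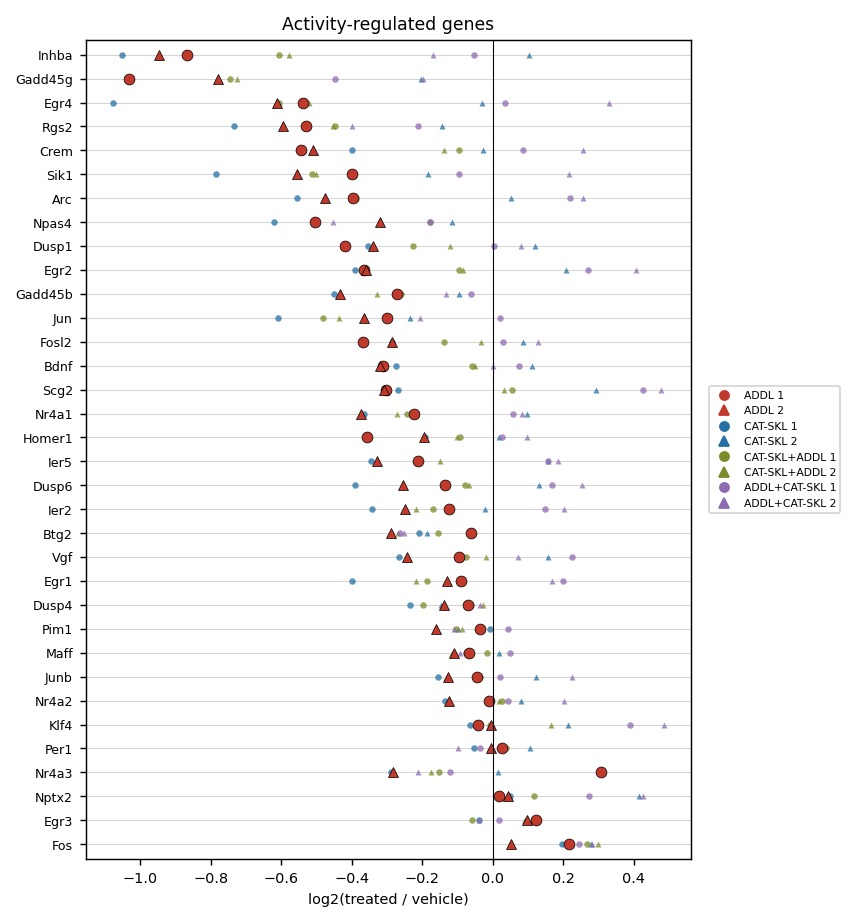
Log2 ratio of treated over vehicle for the 34 activity-regulated genes measured, 1 line per gene, large red symbols for the ADDL arrays and small symbols for the 6 other arrays, circles for array 1 and triangles for array 2 of a group. The ADDL arrays lie left of 0 together for 29 genes, and CAT-SKL 2 and the ADDL+CAT-SKL arrays lie farther right for most of them.

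The promoters of this list were searched for the CRE that CREB binds, as a description only. Members were taken whatever their ADDL ratio. CREB acts on genes of this class, so a raised share follows from how the list was made. A link between the CRE and the ADDL ratios was not tested. In the 250 bases before the RefSeq start of each gene (GRCr8 assembly), the full site TGACGTCA, which reads the same on both strands, stood in 6 of 28 list members with a promoter sequence (21.4%) and in 531 of 33469 promoters of all genes (1.59%). The shorter TGACG, which the full site contains, stood on either strand in 16 of the 28 (57.1%) and in 6097 of all promoters (18.2%). The region searched before the RefSeq start of Bdnf held neither form, and Arc was not among the members with a promoter sequence. A match describes letters and no binding was measured. The 6 members with the full site were Dusp1, Scg2, Btg2, Ier2, Vgf and Maff, and the ADDL arrays of Btg2 were at -0.06 and -0.29, of Ier2 at -0.12 and -0.25, of Vgf at -0.10 and -0.24 and of Maff at -0.07 and -0.11. The promoters of Dusp1 (chr10:17184603-17184852, + strand) and Scg2 (chr9:88256867-88257116, - strand) are shown for the full site, and that of Crem (chr17:58933816-58934065, + strand) for a promoter that holds only the shorter one. Capitals mark the CRE letters.
Dusp1: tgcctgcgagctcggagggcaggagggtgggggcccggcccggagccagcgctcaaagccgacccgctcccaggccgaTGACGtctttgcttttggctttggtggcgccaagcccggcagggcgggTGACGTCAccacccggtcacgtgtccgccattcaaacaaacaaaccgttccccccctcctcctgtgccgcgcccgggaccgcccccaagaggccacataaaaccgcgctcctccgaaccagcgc
Scg2: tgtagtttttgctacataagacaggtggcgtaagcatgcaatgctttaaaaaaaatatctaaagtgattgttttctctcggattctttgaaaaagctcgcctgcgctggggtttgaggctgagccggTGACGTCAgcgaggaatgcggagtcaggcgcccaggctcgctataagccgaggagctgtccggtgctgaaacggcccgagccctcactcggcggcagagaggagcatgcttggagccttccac
Crem: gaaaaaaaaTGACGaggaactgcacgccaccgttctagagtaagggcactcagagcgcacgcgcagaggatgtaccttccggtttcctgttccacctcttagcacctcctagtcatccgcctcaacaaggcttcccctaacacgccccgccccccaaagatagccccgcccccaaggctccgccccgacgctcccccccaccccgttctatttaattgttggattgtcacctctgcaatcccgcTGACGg

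Neuropeptide and growth factor genes split into lower and higher members. Of 26 measured, both ADDL arrays lay below 0 for 12 and above 0 for 7. At an unadjusted p under 0.05 there were 9 lower and 5 higher members, beside 9.18% and 9.83% of all genes tested. The list's median was -0.09 and -0.08. At an adjusted p under 0.10 there were 7 members, Inhba among them. Both ADDL arrays lay below all 6 other arrays for 8 of the 26 (30.8%), against 1067 of all genes tested (4.75%).

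Gal, the peptide galanin, was at -0.82 and -0.73 (mean -0.78 ± 0.18, SE, n = 2, adjusted p = 0.0877 in limma's test), and another probe gave a mean of -0.63. CAT-SKL 1 was as low at -0.79, while CAT-SKL 2 and both ADDL+CAT-SKL arrays lay above 0. Adcyap1, the precursor of PACAP, a peptide that raises cAMP, was at -0.53 and -0.59 with the 6 other arrays between -0.45 and 0.08. Pnoc, the nociceptin precursor, was at -0.68 and -0.64, below all 6 other arrays, which ran from -0.60 to 0.28. Nts, neurotensin, was at -0.46 and -0.36, Tac1, the substance P precursor, at -0.36 and -0.39, and Pdyn, prodynorphin, at -0.37 on both.

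The higher members included peptides of interneurons. Npy, neuropeptide Y, was at 0.36 and 0.52 (adjusted p = 0.0723, limma), and its other probe gave 0.20. Crh, corticotropin-releasing hormone, was at 0.48 and 0.33, and Cort, cortistatin, at 0.81 and 0.32. On the CAT-SKL arrays these 3 genes stood higher: 0.89 and 0.56 for Npy, 0.65 and 0.91 for Crh, and 1.23 and 0.85 for Cort. Sst, somatostatin, was at 0.31 and 0.14.

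The medians of synaptic genes lay near vehicle. Of 30 glutamate receptor and postsynaptic genes, both arrays lay below 0 for 17 and above 0 for 6, with 12 lower and 3 higher at an unadjusted p under 0.05 (9.18% and 9.83% of all genes tested were), 5 at an adjusted p under 0.10 and list medians of -0.09 and -0.07. Grin1, the obligatory NMDA receptor subunit, was at -0.53 and -0.29 (adjusted p = 0.0938, limma), but its other probe gave a mean of -0.06. Grin2a and Grin2b, which set the kinetics of the receptor, were at -0.22 and -0.20 and at -0.18 and -0.13. Lrrc7, the scaffold densin-180, was at -0.42 and -0.43, and it was lower still on CAT-SKL 1 (-0.78). Dlg4, which encodes PSD-95, was at -0.27 and -0.07, and the AMPA receptor gene Gria1 at -0.13 and -0.16. Gria3, another AMPA receptor gene, was at 0.43 and 0.29 with a second probe at 0.06.

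Of 28 presynaptic vesicle release genes, both arrays lay below 0 for 10 and above 0 for 4, with 4 lower and 2 higher at an unadjusted p under 0.05, which is near the shares of all genes tested. There were 3 at an adjusted p under 0.10, and list medians were -0.03 and -0.05. Vamp2, synaptobrevin, was at -0.51 and -0.36 (adjusted p = 0.0714, limma), and all 8 arrays lay between -0.51 and -0.16. Syt4, an activity-induced synaptotagmin, was at -0.33 and -0.47. Syn1, synapsin, was at -0.04 and -0.02. For the voltage-gated ion channels, 15 of 30 lay below 0 on both arrays and 5 above, with medians of -0.01 and -0.08. At an unadjusted p under 0.05, 6 were lower and 1 higher (9.18% and 9.83% of all genes tested were). An adjusted p under 0.10 was reached by 1.

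Genes for the binding partners and kinases that oligomers are linked to were mostly near vehicle. Of 27, both arrays lay below 0 for 11 and above 0 for 8, with medians of -0.04 and -0.04. At an unadjusted p under 0.05, 5 were lower and 3 higher (9.18% and 9.83% of all genes tested were). An adjusted p under 0.10 was reached by 2. Cdk5, a neuronal kinase that phosphorylates tau, was at -0.39 and -0.27 (adjusted p = 0.0723, limma), with the 6 other arrays between -0.30 and -0.03, and its activator Cdk5r1 (p35) at -0.28 and -0.25. The prion protein gene Prnp was at 0.02 and -0.05, Fyn at 0.05 and 0.18, Gsk3b at -0.05 and -0.18 and Ephb2, a receptor that holds NMDA receptors at the synapse, at -0.18 and 0.01. Pgrmc1, a membrane progesterone receptor component that has been tied to the sigma-2 receptor, was at 0.19 and 0.25, but its 2 other probes gave -0.07 and -0.16.

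Among 22 genes for the amyloid precursor, its secretases, tau and amyloid clearance, both arrays lay above 0 for 8 and below 0 for 7. Medians were 0.04 and 0.01. At an unadjusted p under 0.05, 5 were higher and 0 lower, beside 9.83% and 9.18% of all genes tested. App itself was at -0.07 and -0.02 (mean -0.05 ± 0.09, SE, n = 2, adjusted p = 0.848 in limma's test). Bace1, the beta-secretase gene, was within 0.06 of vehicle on both arrays, and Mapt, tau, at 0.29 and 0.20 with another probe at -0.01. The 1 member at an adjusted p under 0.10 was Apoe, the main lipid carrier of astrocytes.

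Astrocyte markers showed the highest list median. Of 19 measured, both ADDL arrays lay above 0 for 18, and the list's median log2 ratio was 0.32 on ADDL 1 and 0.78 on ADDL 2. At an unadjusted p under 0.05 there were 18 higher (9.83% of all genes tested were) and 0 lower. At least 1.3-fold above vehicle on both arrays were 8 (0.659% of all genes tested were). An adjusted p under 0.10 was reached by 9, beside 2.35% higher and 1.49% lower of all genes tested. Without ADDL 2 the median was 0.32, and over the settings tried it ran up to 0.82. The astrocyte list medians were 0.75 and 0.20 on the CAT-SKL arrays, 0.58 and 0.52 on CAT-SKL+ADDL, and 0.24 and -0.01 on ADDL+CAT-SKL. The markers' summed raw signal was 36856 and 53673 in ADDL-treated RNA against 25564 and 25302 in vehicle RNA, while that of the neuronal markers was 172880 and 162165 against 167296 and 162420. In RNA of a whole culture, more cells of a type and more RNA per cell cannot be told apart.

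Apoe was at 0.95 on ADDL 1 and 1.76 on ADDL 2 (mean 1.36 ± 0.28, SE, n = 2, adjusted p = 0.0749 in limma's test). Ndrg2, an astrocyte protein of the NDRG family, was at 0.96 and 1.58, Fabp7, the brain lipid binding protein, at 0.90 and 1.45, and the glutamate transporter Slc1a3 at 0.73 and 1.2957 with another probe at 0.80. ADDL 2 exceeded ADDL 1 for each of these genes, and the CAT-SKL arrays differed more, with Apoe at 1.92 and 0.70. Apoe was at 1.40 and 1.46 on the CAT-SKL+ADDL arrays and at 0.80 and 0.25 on the ADDL+CAT-SKL arrays. Gja1, connexin 43, was at 0.66 and 1.19, and S100b at 0.57 and 1.2956 with another probe at a mean of 0.12. The water channel Aqp4 was at 0.66 and 1.45, but its other probes gave means of 0.29 and 0.23. Gfap, the intermediate filament of reactive astrocytes, was at 0.16 and 0.78, and Gjb6, connexin 30, at -0.03 and -0.01.

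The glutamate transporter Slc1a2 had another pattern across the arrays. It was at 0.46 and 0.32 on the ADDL arrays (mean 0.39 ± 0.06, SE, n = 2, adjusted p = 0.0714 in limma's test) and between -0.10 and 0.13 on the 6 other arrays, and its other probe gave 0.56 for ADDL. Its difference between ADDL and CAT-SKL was 0.40, which did not pass limma's test after adjustment over all genes.

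Radial glia and progenitor markers, 2 of which also stand on the astrocyte list, lay above 0 on both arrays for 11 of 15 and below for 1. At an unadjusted p under 0.05 there were 8 higher and 0 lower, beside 9.83% and 9.18% of all genes tested. Medians were 0.14 and 0.23. Sox2, a stem cell factor, was at 0.55 and 0.72 and Nes, nestin, at 0.44 and 0.74. Pax6 was at -0.06 and -0.04 and Vim at -0.07 and 0.04. Of 15 oligodendrocyte lineage markers both arrays lay above 0 for 8 and below for 2, with medians of 0.17 and 0.14. At an unadjusted p under 0.05, 6 were higher and 0 lower, beside 9.83% and 9.18% of all genes tested. An adjusted p under 0.10 was reached by 3, beside 2.35% higher and 1.49% lower of all genes tested. The oligodendrocyte list medians were 0.47 and 0.03 on the CAT-SKL arrays, 0.53 and 0.46 on CAT-SKL+ADDL, and 0.02 and 0.03 on ADDL+CAT-SKL. The genes of precursors stood above vehicle: Olig1 was at 0.79 and 0.89 and Pdgfra, the growth factor receptor of precursors, at 0.55 and 1.25. Olig2 was at 0.57 and 0.69 with another probe of Olig2 at -0.01. Olig1 was at 1.11 and 0.40 on the CAT-SKL arrays, 0.90 and 0.88 on CAT-SKL+ADDL, and 0.17 and -0.32 on ADDL+CAT-SKL. Mbp, a gene of myelin, was at 0.41 and -0.29.

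Of 17 microglia and macrophage markers both arrays lay above 0 for 11 and below for 1, with medians of 0.12 and 0.08. At an unadjusted p under 0.05, 7 were higher and 0 lower (9.83% and 9.18% of all genes tested were). There were 3 at an adjusted p under 0.10. Here ADDL 1 was the higher array. Cx3cr1, the fractalkine receptor, was at 0.78 and 0.35, Fcer1g, a signalling chain of Fc receptors, at 0.52 and 0.25, Laptm5 at 0.46 and 0.20, and Trem2 at 0.46 and -0.20. The homeostatic markers P2ry12 and Tmem119 were at 0.07 and 0.04 and at 0.08 and 0.06. Neuronal markers had 5 members above 0 on both arrays and 6 below of 17, with medians of 0.03 and -0.02. At an unadjusted p under 0.05, 1 was higher and 3 lower, beside 9.83% and 9.18% of all genes tested. The lower ones were the neurofilament genes Nefm (-0.48 and -0.33) and Nefl (-0.47 and -0.29) and the enolase gene Eno2 (-0.34 and -0.18). Endothelial and pericyte markers had medians of -0.02 and 0.02, meningeal and fibroblast markers 0.03 and 0.02, and blood cell markers 0.02 and -0.02.

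**Figure D3:**
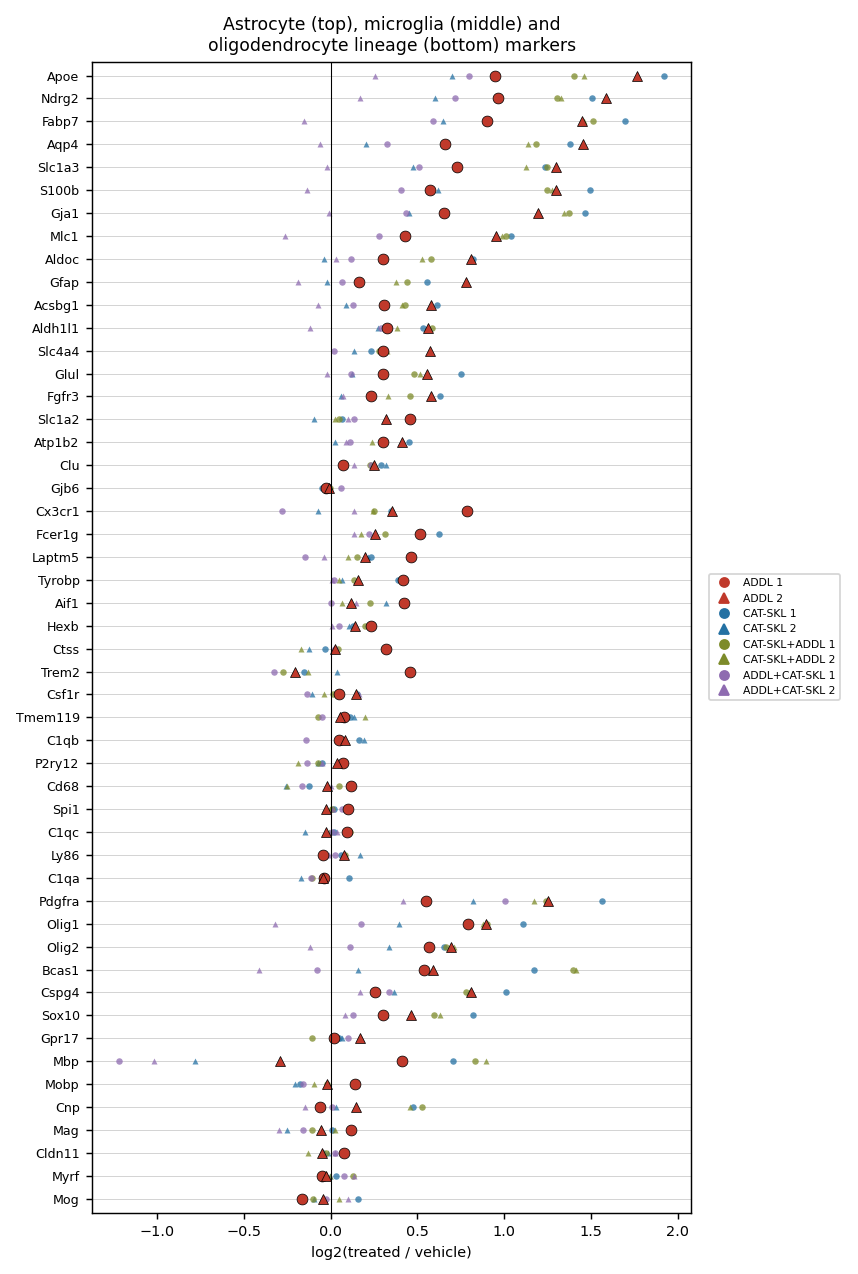
Log2 ratio of treated over vehicle for 19 astrocyte markers (top), 17 microglia and macrophage markers (middle) and 14 of the 15 oligodendrocyte lineage markers (bottom), large red symbols for the ADDL arrays and small ones for the 6 others, circles for array 1 and triangles for array 2. Astrocyte markers reach 1.76 on ADDL 2 (Apoe), and ADDL 2 lies right of ADDL 1 for most of them, whereas ADDL 1 is the higher array for several microglial markers such as Cx3cr1 (0.78 and 0.35).

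Cell cycle and replication genes were higher with both arrays above 0 for 25 of 31 and below for 1. At an unadjusted p under 0.05 there were 17 higher and 0 lower, beside 9.83% and 9.18% of all genes tested. There were 8 at an adjusted p under 0.10, and medians were 0.17 and 0.28. The list medians were 0.31 and 0.14 on the CAT-SKL arrays, 0.29 and 0.31 on CAT-SKL+ADDL, and 0.25 and 0.05 on ADDL+CAT-SKL. Rrm2, a ribonucleotide reductase subunit, was at 0.74 and 0.97 with another probe at 0.12. Birc5, survivin, was at 0.45 and 0.60, Mcm3, a helicase subunit of replication, at 0.53 and 0.46, and Plk1, a mitotic kinase, at 0.38 and 0.47. Birc5 and Plk1 also lay above 0 on all 6 other arrays, between 0.25 and 0.46 and between 0.18 and 0.46. Pcna was at -0.04 and 0.03.

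GABAergic neuron markers lay above 0 on both arrays for 16 of 20 and below for 3, with medians of 0.21 and 0.17. At an unadjusted p under 0.05, 9 were higher and 1 lower (9.83% and 9.18% of all genes tested were). There were 5 at an adjusted p under 0.10. The list medians were 0.29 and 0.10 on the CAT-SKL arrays, 0.22 and 0.26 on CAT-SKL+ADDL, and 0.12 and 0.04 on ADDL+CAT-SKL. Slc32a1, the vesicular GABA transporter, was at 0.80 and 0.73 (mean 0.77 ± 0.11, SE, n = 2, adjusted p = 0.0714 in limma's test). The GABA-synthesising enzyme gene Gad1 was at 0.46 and 0.55 with another probe at -0.04, and Gad2 at 0.22 and 0.05. On the CAT-SKL arrays Slc32a1 was at 1.01 and 0.45. The lower member was Calb1, a calcium buffer, at -0.31 and -0.12, where all 6 other arrays lay between 0.28 and 0.62. Glutamatergic neuron markers had medians of 0.02 and -0.01. At an unadjusted p under 0.05, 2 of 12 were higher and 1 lower, beside the same shares of all genes tested.

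Tubulin and microtubule genes lay on both sides of vehicle. Of 27, both arrays lay above 0 for 15 and below for 6, with medians of 0.17 and 0.06. At an unadjusted p under 0.05, 11 were higher and 4 lower (9.83% and 9.18% of all genes tested were). An adjusted p under 0.10 was reached by 7. Tuba1a, the main alpha-tubulin of young neurons, was at 0.71 and 0.82 (mean 0.76 ± 0.10, SE, n = 2, adjusted p = 0.0714 in limma's test). Tubb2a was at 0.51 and 0.64, Tubb4b at 0.46 and 0.50, and Tuba1b at 0.46 and 0.62. All 4 stood above 0 on all 8 arrays, with Tuba1a between 0.41 and 0.95, where dye and treatment cannot be told apart. Tubulin genes are close in sequence, so a probe may read several of them. The neuronal Tubb3 was at 0.09 and -0.06. Lower members included Stmn4, a stathmin, at -0.84 and -0.27 and Dpysl3, a collapsin response mediator, at -0.39 and -0.29. Dpysl2, of the same family as Dpysl3, was at 0.22 and 0.30 with another probe at -0.09.

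Genes of the unfolded protein and integrated stress responses lay somewhat above vehicle. Of 28, both arrays lay above 0 for 14 and below for 3, with medians of 0.16 and 0.06. At an unadjusted p under 0.05, 11 were higher and 1 lower (9.83% and 9.18% of all genes tested were). There were 4 at an adjusted p under 0.10. Herpud1, which helps to remove misfolded proteins from the endoplasmic reticulum, was at 0.58 and 0.32, Atf3, a stress-induced factor, at 0.44 and 0.36, and Creld2, an endoplasmic reticulum chaperone, at 0.28 and 0.43. Atf3 had an adjusted p of 0.0749 in limma's test, and the CAT-SKL arrays were at 0.18 and -0.10. Hspa5, the chaperone BiP, was at 0.38 and 0.12 and Ddit3, CHOP, at 0.37 and 0.09. Atf4 was at -0.24 on both arrays and Trib3 at -0.06 and -0.04. The median of this list on CAT-SKL 1 and CAT-SKL 2 was 0.11 and -0.05.

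Of 18 cytosolic heat shock chaperones, both arrays lay above 0 for 9 and below for 8, with medians of 0.02 and 0.06. At an unadjusted p under 0.05, 5 were higher and 4 lower, beside 9.83% and 9.18% of all genes tested. Cryab, a small heat shock protein, was at -0.96 and -0.74 (adjusted p = 0.113, limma), with CAT-SKL 1 at -0.75, CAT-SKL 2 at 0.49 and the sequential treatments between -0.09 and 0.04. Hspb1 was at 0.39 and 0.29. Hspa8 was at 0.28 and 0.25, but its 3 other probes gave -0.36, -0.30 and -0.06.

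Oxidative defence genes lay on both sides of vehicle. Of 22 NRF2 targets both arrays lay above 0 for 12 and below for 5, with medians of 0.06 and 0.12. At an unadjusted p under 0.05, 7 were higher and 1 lower (9.83% and 9.18% of all genes tested were). There were 4 at an adjusted p under 0.10. This list's medians were 0.20 and 0.11 on the CAT-SKL arrays, 0.16 and 0.18 on CAT-SKL+ADDL, and 0.11 and -0.01 on ADDL+CAT-SKL. Hmox1, heme oxygenase, was at 0.40 and 0.75 and Gclc, the rate-limiting enzyme of glutathione synthesis, at 0.35 and 0.34. The cystine transporter Slc7a11 was at 0.28 and 0.52 with another probe at 0.11. Hmox1, Gclc and Slc7a11 lay above 0 on all 8 arrays. Srxn1, sulfiredoxin, which repairs oxidised peroxiredoxins and is also induced by synaptic activity, was at -0.36 and -0.27 while the 6 other arrays lay between -0.05 and 0.22. Of 21 peroxide and superoxide removal genes both arrays lay above 0 for 6 and below for 11, with medians of -0.11 and -0.02. At an unadjusted p under 0.05, 3 were higher and 3 lower, beside 9.83% and 9.18% of all genes tested. Sod2, the mitochondrial superoxide dismutase, was at 0.37 and 0.21 and Gpx1 at 0.24 and 0.30. Cat, catalase itself, was at -0.48 and -0.03 (mean -0.26 ± 0.09, SE, n = 2, adjusted p = 0.197 in limma's test), so that its ADDL arrays differed more than its mean. Oxr1, an oxidation resistance gene, was at -0.45 and -0.34 with the 6 other arrays between -0.08 and 0.04.

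Of 26 peroxisome genes, 3 were higher and 3 lower at an unadjusted p under 0.05, near the shares of all genes tested (9.83% and 9.18%). Medians were 0.01 and 0.03. Pex13, a pore protein of peroxisomal import, was at 0.27 and 0.23, and Pex5, the receptor of the SKL signal, at -0.13 and -0.31. Of 21 p53 target and apoptosis genes, 3 were higher and 2 lower at an unadjusted p under 0.05, beside the same shares of all genes tested. Bnip3, a mitophagy receptor, was at 0.34 and 0.45 and Gadd45a at -0.35 and -0.28, whereas Cdkn1a (0.03 and -0.05), Bax (-0.14 and -0.01) and Bbc3 (0.16 and -0.02) were near vehicle.

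Inflammatory cytokine and chemokine genes had medians of 0.04 and -0.03. At an unadjusted p under 0.05, 2 of 22 were higher and 0 lower, beside 9.83% and 9.18% of all genes tested. The 2 higher ones were Vcam1, an adhesion molecule, at 0.58 and 1.27, and Il33, an alarmin, at 0.22 and 0.33. In the vehicle channel, 15 of the 22 probes were well above background on both ADDL arrays. Interferon response and antigen presentation genes lay above 0 on both arrays for 13 of 24 and below for 1, with medians of 0.08 on both. At an unadjusted p under 0.05, 7 were higher and 0 lower (9.83% and 9.18% of all genes tested were). There were 4 at an adjusted p under 0.10. Ifi27 was at 0.33 and 0.60, with the other arrays between 0.03 and 0.55. B2m, the light chain of class I antigen presentation, was at 0.28 and 0.26, below all the other arrays, which ran from 0.33 to 0.66.

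Of 30 proteasome genes both arrays lay below 0 for 16 and above 0 for 5, with medians of -0.12 and -0.02. At an unadjusted p under 0.05, 10 were lower and 0 higher (9.18% and 9.83% of all genes tested were). An adjusted p under 0.10 was reached by 1. Both ADDL arrays lay below all 6 other arrays for 8 of the 30 (26.7%, against 4.75% of all genes tested). Psmd7, a lid subunit, was at -0.19 and -0.33, and the core subunits Psma1 and Psma2 at -0.32 and -0.16 and at -0.24 and -0.13. The list medians on the 6 other arrays lay between 0.00 and 0.05.

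Cholesterol synthesis and uptake genes lay below 0 on both arrays for 13 of 24 and above 0 for 4. Medians were -0.09 and -0.05. At an unadjusted p under 0.05, 5 were lower and 1 higher (9.18% and 9.83% of all genes tested were). There were 2 at an adjusted p under 0.10. Fdft1, squalene synthase, was at 0.32 and 0.21 and between -0.12 and 0.10 on the 6 other arrays.

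The medians of the remaining lists were near vehicle. Their counts at an unadjusted p under 0.05 stand beside 9.83% higher and 9.18% lower of all genes tested. Ribosomal protein genes had medians of 0.03 and 0.02, with 10 of 54 higher and 4 lower at an unadjusted p under 0.05, and Rpl7 (0.27 and 0.28) and Rps23 (0.26 on both) had other probes at or below -0.06. Oxidative phosphorylation genes had medians of 0.01 and 0.00, with 7 of 45 higher and 4 lower, beside 9.83% and 9.18% of all genes tested. Autophagy and lysosome genes had medians of -0.06 and 0.03, with 5 of 32 higher and 2 lower. Of the 15 histone and chromatin remodeller genes, with medians of 0.03 on both arrays, 5 were higher and 2 lower. The higher ones included H1f0 (0.28 and 0.17), whose other probe was at -0.42. The lower ones were the linker histone H1f4 (-0.33 and -0.40) and Chd2 (-0.30 and -0.44). Both were lower still on the CAT-SKL arrays, H1f4 at -0.76 and -0.64.

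**Figure D4:**
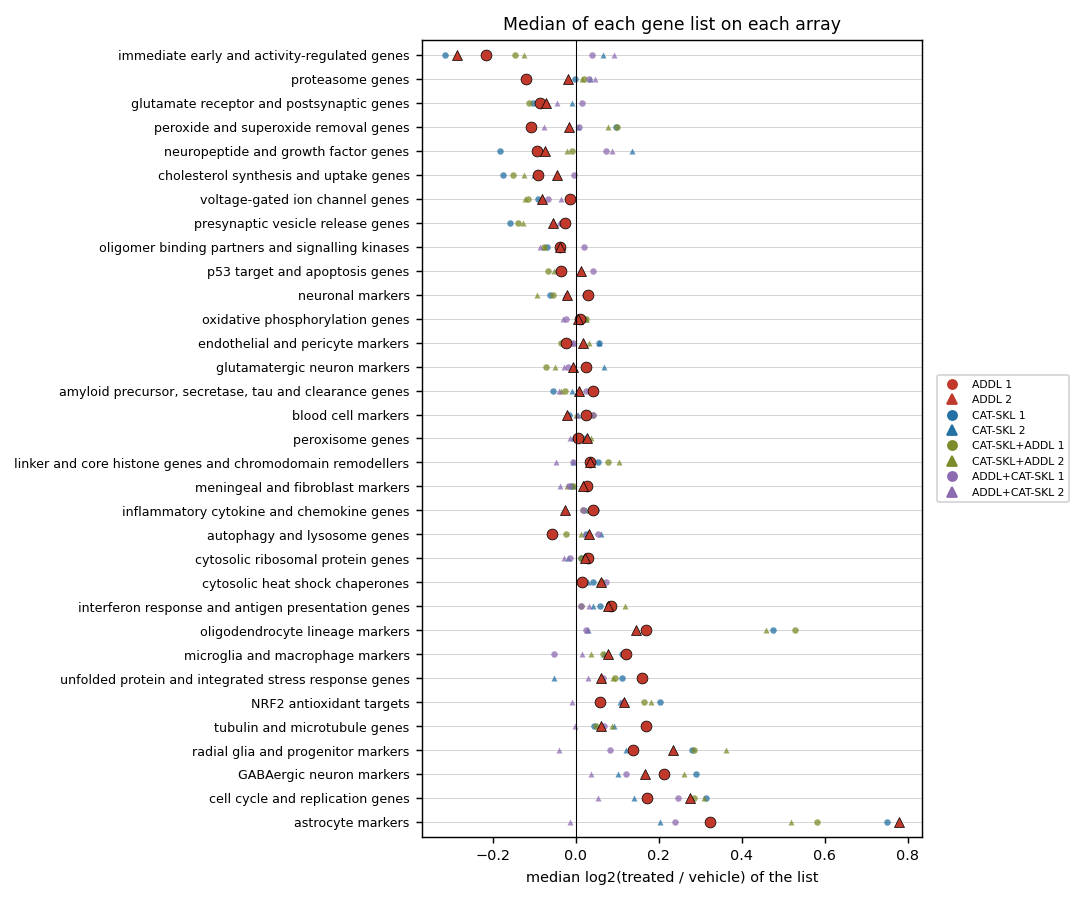
Median log2 ratio of treated over vehicle of each of 33 gene lists on each of the 8 arrays, ordered by the ADDL mean, large red symbols for the ADDL arrays. Activity-regulated genes lie lowest (-0.22 and -0.29) and astrocyte markers highest (0.32 and 0.78), and most other lists lie near 0 on all arrays.

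By size on the weaker of the ADDL arrays, the highest gene was Cdhr1, a photoreceptor cadherin, at 2.28 and 2.17 (mean 2.22 ± 0.41, SE, n = 2, adjusted p = 0.0723 in limma's test). It was at 2.43 and 0.11 on the CAT-SKL arrays, at 1.82 on both CAT-SKL+ADDL arrays and at 0.13 and 0.03 on the ADDL+CAT-SKL arrays, so that 5 arrays stood high and 3 near 0. The other genes among the 10 highest included Bcan, a proteoglycan of the brain matrix, at 0.75 and 1.08 with another probe at 0.32. The lowest after Inhba were Emp1, a membrane protein, at -0.81 and -0.89, Gadd45g, Arpp21, a cAMP-regulated phosphoprotein of neurons, at -0.80 and -0.76 with other probes at -0.61 and -0.02, and Gprc5a at -0.81 and -0.76. Mustn1 was at -0.72 and -0.80 with another probe at -0.59, Ucn, the stress peptide urocortin, at -0.67 and -0.66, and Sema7a, a semaphorin, at -0.67 and -0.64. For Emp1, Gprc5a and Mustn1 CAT-SKL 1 was also low, at -0.71, -0.85 and -0.47, and CAT-SKL 2 was at 0.52, 0.36 and 0.50.

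By smallest p, the higher genes were led by Mphosph6, a factor of ribosomal RNA processing, at 0.50 and 0.52 with another probe at -0.10. Spag7 was at 0.90 and 0.51, Tspan2, a tetraspanin of the oligodendrocyte lineage, at 0.51 and 0.59, Myd88, the adaptor of Toll-like receptors, at 0.47 and 0.42, and Tcf15, a helix-loop-helix factor, at 0.94 and 0.70. The lower genes included Suco (-0.34 and -0.43), Uap1, which makes UDP-N-acetylglucosamine (-0.41 and -0.45), Usf1, a transcription factor (-0.58 and -0.38), Clic1, a chloride channel protein (-0.55 and -0.42), Rbp4, the retinol carrier (-0.36 and -0.45), Emc9 (-0.33 and -0.41) and Ptges3l1 (-0.37 and -0.49). Some of these stood at like values under every treatment: Emc9 lay between -0.52 and -0.32 and Rbp4 between -0.52 and -0.24 on all 8 arrays, where dye and treatment cannot be told apart. Uap1 and Clic1 lay below the 6 other arrays, which ran from -0.23 to 0.02 for Uap1 and from -0.10 to 0.17 for Clic1.

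ADDL alone was then compared with CAT-SKL alone, the other single treatment of 24 h, and with ADDL+CAT-SKL, which adds CAT-SKL and a further 24 h. These comparisons take the vehicle and the dye out where both groups share them, and whether a single pool of vehicle RNA was used is not stated in the labels. By the array names in the file headers, the single treatments and the sequential treatments lay in separate rows of the slide. Row, duration and treatment therefore cannot be told apart when ADDL is set against ADDL+CAT-SKL. Against CAT-SKL, 0 genes passed an adjusted p of 0.05 (0% in each direction, smallest adjusted p = 0.541, limma), and at an unadjusted p under 0.05 there were 1177 higher (5.24%) and 776 lower (3.46%). With median centring instead of loess, 24.8% of the genes at an unadjusted p under 0.05 were higher, in place of 60.3%. Against ADDL+CAT-SKL, 0 genes passed (0%, smallest adjusted p = 0.573, limma), with 1048 higher (4.67%) and 837 lower (3.73%) at an unadjusted p under 0.05. The share of higher genes among these was 55.6%, and 42.1% with median centring. Without CAT-SKL 1 the counts that passed were 8 and 13, and with median centring 1 and 30.

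The genes of smallest p against CAT-SKL included Calb1, Oxr1 and Uap1 on the lower side and Il6st, the shared receptor subunit of interleukin 6 cytokines, on the higher side. Il6st was at 0.23 and 0.24 after ADDL and at -0.15 and -0.25 after CAT-SKL. Against ADDL+CAT-SKL they included Cdh6, a cadherin, at 0.47 and 0.25 after ADDL and -0.36 and -0.37 after ADDL+CAT-SKL, and Crem and Srxn1 on the lower side. Ercc1, a DNA repair nuclease subunit, was at -0.45 and -0.30 after ADDL and between -0.08 and 0.37 on the 6 other arrays.

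Both ADDL arrays lay above all 6 other arrays for 1289 genes (5.74%) and below them for 1067 (4.75%). Of the genes with both arrays at least 1.3-fold from vehicle, 23 of 148 higher and 20 of 53 lower ones lay apart in this way, and 30 of these had a symbol, 12 higher and 18 lower. They were chosen after their values were seen. The lower ones included the activity-regulated Crem and Fosl1 (-0.60 and -0.61), the peptide genes Ucn, Pnoc and Adcyap1, the receptor genes Nmbr (bombesin-like peptides, -0.53 and -0.48) and Htr2c (serotonin, -0.47 and -0.41), and the iron exporter Slc40a1 (-0.42 and -0.44). The higher ones included Spag7, Tcf15, Pax3, a homeobox factor (0.90 and 0.55), Cyb5r1 (0.83 and 0.53) and Nacc2 (0.41 and 0.45). Pax3, Cyb5r1, Htr2c and Slc40a1 each had 1 other tested probe, whose values are not given here. For Spag7, Tcf15, Pax3 and Cyb5r1 ADDL 1 was the higher array, and CAT-SKL+ADDL lay between 0.33 and 0.42.

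**Figure D5:**
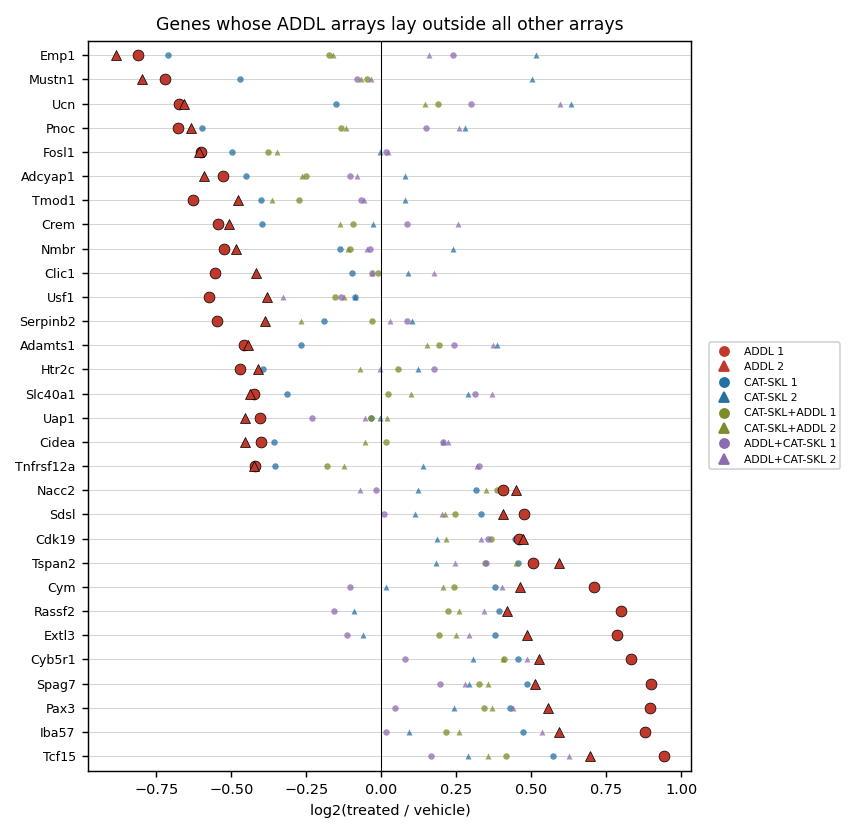
Log2 ratio of treated over vehicle for the 30 named genes whose ADDL arrays (large red symbols) both lay at least 1.3-fold from vehicle and outside the range of all 6 other arrays (small symbols), circles for array 1 and triangles for array 2. In the 18 lower genes the nearest other array is mostly CAT-SKL 1, and in the 12 higher genes the ADDL arrays reach 0.94 (Tcf15).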

How the data were processed

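RNA of 8 samples was hybridised to 2-colour Agilent arrays of 1 slide with 62976 spots, 58717 of them non-control, for 30367 probes. Per the file headers, the deposited scanner files hold each spot's median intensity and local background intensity in Cy5 and Cy3. They also hold 0 or 1 flags for background, outliers and saturation, and no spot on these arrays was saturated. The authors' deposited table holds log10 ratios of Cy5 over Cy3. These were made with Agilent Feature Extraction 11.5, per the submitters' processing notes, after background subtraction and dye normalisation, per the file headers. They differ from the scanner files' log10 ratios by at most 0.00500 and have array medians of 0. One alternative used them.

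Intensities were background-corrected by normexp with an offset of 50 (limma 3.58.1, R 4.3.3) and loess-normalised within arrays, giving control spots no weight. Spots marked by the scanner as outliers (902 to 1262 on an array) were dropped before averaging each probe. Kept were 25363 probes that stood well above background in Cy5 or Cy3 on 2 or more arrays, less 67 with a missing value, and the brightest tested probe stood for a gene. A name came from the probe's accession, without version, in RefSeq's GRCr8 table (17998 of 30367 probes; 12944 of the 22459 genes and accessions tested). The arrays were designed on another build, so no probe coordinates are given.

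Groups were fitted with lmFit and eBayes over 7 samples (3 residual degrees of freedom, 5.05 from the prior), with Benjamini-Hochberg adjustment over all genes and a threshold of 0.05. Standard errors pool the spread of all groups. The CAT-SKL+ADDL arrays were averaged, since duplicate spots showed that they differ by spot noise. The group, the 33 gene lists (784 of 870 entries measured) and the tests were chosen with earlier results of these data known, so lists got no test. Named genes were those with a symbol and the same sign on both ADDL arrays: the 10 of smallest p and the 10 of largest size on the weaker array in each direction, up to 6 per list by p, Cat and App, and 5 per direction of smallest p in each other comparison. Other list members are named as examples. Some genes that the rule names are not reported here, and counts and medians include them. Other probes of genes named by this rule are given where they differ in sign or by over 0.3. Promoters and their starts are those of RefSeq's GRCr8 table. The functions were tested on simulated data.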

Additional observations from a re-analysis of the deposited data

Results flagged for a closer look

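Some genes stood on opposite sides of vehicle after ADDL and after another treatment, with every array of each group on its own side. Such a split is not a test, and none of these differences passed limma's adjustment. Against CAT-SKL alone, the mean log2 ratio after ADDL was 0.23 for Il6st, 0.11 for Krt80, a keratin (-0.30 on both CAT-SKL arrays), and 0.11 for Clca5 (-0.20 and -0.28). It was -0.21 for Calb1 and -0.076 for Trappc2, a vesicle tethering subunit (0.30 and 0.36 after CAT-SKL).

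Against ADDL+CAT-SKL, ADDL alone was above vehicle for Cdh6 (mean log2 ratio 0.36), Dll3, a Notch ligand (0.31, against -0.21 and -0.18), Nacc2 (0.43, against -0.02 and -0.07), Chrna4, a nicotinic receptor subunit (0.31, against -0.12 and -0.21), C1h11orf86 (0.35) and Clca5 (0.11, against -0.07 and -0.04). It was below vehicle for Emp1 (-0.85, against 0.24 and 0.16), Gprc5a (-0.79, against 0.29 and 0.34), Cryab (-0.85, against 0.04 and 0.01), Gal (-0.78, against 0.07 and 0.19) and Ucn (-0.67, against 0.30 and 0.60). The same held for Calb1 (-0.21, against 0.34 on both), Man1a1, a mannosidase of the Golgi (-0.20, against 0.37 and 0.38), Sstr3, a somatostatin receptor (-0.22, against 0.23 and 0.22), Srxn1 (-0.32, against 0.18 and 0.22), Crem (-0.53, against 0.09 and 0.26) and Ercc1 (-0.37, against 0.16 and 0.37).

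Medians of whole lists were opposite in the same sense, all but 1 by a small amount. The activity-regulated genes had a median of the ADDL mean of -0.27, against 0.04 and 0.09 on the ADDL+CAT-SKL arrays. Proteasome genes were at -0.086 (0.031 and 0.047), neuropeptide and growth factor genes at -0.054 (0.072 and 0.087), ribosomal protein genes at 0.023 (-0.013 and -0.027), histone and remodeller genes at 0.013 (-0.0060 and -0.048) and meningeal markers at 0.014 (-0.016 and -0.038). Against CAT-SKL the median of peroxide and superoxide removal genes was -0.054 (0.096 and 0.0043), that of the amyloid precursor, secretase, tau and clearance genes 0.0002 (-0.054 and -0.0087) and that of meningeal markers 0.014 (-0.010 and -0.0064). These differences of medians were not tested. The ADDL medians of the ribosomal, histone and amyloid lists changed sign under at least 1 setting.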

How the results depend on the processing

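The medians of the 33 gene lists kept their value within the spread between arrays in 491 recomputations and moved in 70. For 11 lists the median changed sign under at least 1 setting, staying between -0.087 and 0.073: amyloid, p53, cytokine, ribosomal, oxidative phosphorylation, autophagy, histone, neuronal, glutamatergic, endothelial and blood. Of the named genes' log2 ratios, 3389 kept direction and side of the threshold, 325 passed it, and 18 changed sign. The counts moved more, and their cause was not tested. The count of genes at an adjusted p under 0.05 (0 for each comparison) was 975 against vehicle with 8 separate samples. With median centring it was 430 against vehicle, 1 against CAT-SKL and 30 against ADDL+CAT-SKL. Leaving out 1 array at a time gave 0 to 329 against vehicle, 0 to 8 against CAT-SKL and 0 to 13 against ADDL+CAT-SKL, the highest without a CAT-SKL array. The count at an adjusted p under 0.10 (862) was 2385 with 8 separate samples, 413 with no background subtraction (390 of them among the 862), and 0 with the deposited ratios and with the CAT-SKL and ADDL arrays alone. It ran from 0 to 1222 leaving out 1 array at a time. The counts past 1.3-fold (148 higher, 53 lower) were 891 and 666 with the deposited ratios and 233 and 94 with no background subtraction. They were 391 and 140 without ADDL 1 and 407 and 346 without ADDL 2, since 1 array then sufficed, and 148 and 53 without any 1 other array.

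With the replicate number as a block (replicate block) the count at 0.05 was 0 and that at 0.10 was 0. The numbers do not pair the samples: same-numbered deviations from the group means correlated at -0.202 to 0.0784 over the 6 pairs of groups.

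These log2 ratios changed sign. With median centring Hba-a1 was at -0.027 and Hbb-bs at 0.0033. Tmem52b was at -0.17 with the deposited ratios and -0.052 with no background subtraction. With the mean of a gene's probes Erc2 was at -0.019, H1f0 at -0.10, Hba-a1 at -0.017, Hspa8 at -0.11, Pgrmc1 at -0.0060 and Tmem52b at -0.0006. Without ADDL 1 and without ADDL 2 respectively, Abcd3 was at 0.067 and -1.32, Alas2 at -0.020 and 0.15, Hba-a1 at -0.037 and 0.048, Hbb-bs at 0.0030 and -0.016, Map2 at -0.020 and 0.59, Slc4a1 at -0.030 and 0.083, Tcf4 at -0.10 and 0.079, and Tmem52b at 0.057 and -0.021. Dim probes limit what could be seen: 26845 genes would be tested with no filter, and 18652 were well above background in both channels of both ADDL arrays.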

Other observations

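Several genes were far from vehicle on 1 ADDL array only. Psmd13, a proteasome lid subunit, was at -1.44 on ADDL 1 and -0.05 on ADDL 2, and Abcd3, a transporter of the peroxisomal membrane, at -1.32 and 0.07. On the 6 other arrays Psmd13 lay between -0.10 and 0.06 and Abcd3 between -0.21 and 0.00. Dcn, decorin, a matrix proteoglycan of fibroblasts, was at -0.87 and -0.15. Map2, a dendritic microtubule protein, was at 0.59 and -0.02, and Lrp1, a receptor of lipoproteins that also takes up amyloid-beta, at -0.53 and -0.01. These genes were chosen after their values were seen.

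Mbp, myelin basic protein, spread widely over the arrays, from -1.21 on ADDL+CAT-SKL 1 to 0.89 on CAT-SKL+ADDL 2, with the ADDL arrays at 0.41 and -0.29.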
